A study of Mus musculus with 12 samples.

Results

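The CCAAT/enhancer-binding proteins (C/EBPs) are transcription factors that bind DNA as dimers through a basic leucine zipper (bZIP). They are known for driving adipocyte and myeloid differentiation, and for acute-phase and inflammatory transcription in fibroblasts and liver. The mRNAs of C/EBP alpha and C/EBP beta are known to carry a short upstream reading frame that sets whether translation starts at the long or at a truncated isoform, and that choice is known to respond to initiation factor activity. Here 5 genes were taken by symbol from the 55536 gene IDs counted in each library, namely Cebpa, Cebpb, Cebpd, Cebpg and Cebpz. Cebpa, Cebpb, Cebpd and Cebpg encode bZIP proteins. Cebpz carries the C/EBP name, yet its product belongs to the Mak21 family of nucleolar proteins, known for assembly of the large ribosomal subunit, and not to the bZIP factors.

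The cells were mouse embryonic fibroblasts (MEF), and the labels do not give a genotype, a strain or the number of embryos. Control cells spent 6 h in high-glucose DMEM whose fetal bovine serum had been dialyzed to remove small molecules. Treated cells spent the same time in that medium with halofuginone (HF) at 100 nM, known as an inhibitor of the prolyl-tRNA synthetase activity of EPRS. Total RNA and ribosome footprints (RPF) were each sequenced in 3 control and 3 HF libraries, 12 in all. The series concerns the amino acid sensor GCN2 and the growth kinase complex mTORC1, and the comparisons ask how the C/EBP genes stood in RNA and on ribosomes after the synthetase was inhibited.

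Nothing in the labels says that the libraries of a group came from separate cultures, so p-values measure the spread between libraries, which may be technical. Library totals ran from 562794 counts (RPF HF 3) to 2527791 counts (RPF control 1). Fibroblast markers, led by Vim, Col1a1 and Col1a2, summed in RNA to 6164 to 6492 CPM (counts per 1e+06 counts of the library, scaled as below) in control and 4455 to 4611 CPM in HF libraries. In footprints the sums were 12943 to 13907 and 8049 to 8233 CPM. Lum had 0 counts in 12 libraries, Dcn was at 0 in 8 and Col3a1 in 3. All 5 adipocyte markers, Adipoq and Fabp4 among them, had 0 counts in 12 libraries. The 6 macrophage markers summed to at most 5.81 CPM, with Adgre1, Lyz2 and Itgam at 0, and endothelial markers to 0 to 1.58 CPM in control RNA, 5.20 to 15.5 in HF RNA, 0 to 3.83 in control footprints and 3.19 to 11.9 in HF footprints, with Pecam1 and Tek at 0. Epithelial markers summed in RNA to 70.8 to 85.7 CPM in control and 192 to 198 CPM in HF libraries, nearly all of it Krt19, while Krt8 was at 0 and Epcam had 1 count in all. In footprints they summed to 223 to 272 and 208 to 359 CPM. The part of these marker shifts in the results was not tested.

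CPM values were scaled within each assay by TMM factors (trimmed mean of M-values). In these bulk samples fewer cells of a kind and less RNA per cell cannot be told apart, and a fold change compares a gene with the other genes of its assay, not with the number of cells. In total RNA, Gm42418, a gene known to overlap ribosomal RNA sequence, took 11.8% to 13.7% of control counts and 7.35% to 9.48% of HF counts, and its part in the RNA differences was not tested. Among genes with 1 to 10 counts, 67.1% to 83.4% had an even count depending on the library, which the sources used here do not account for, so tests on these counts may understate counting error. All members but Cebpa, 4 of 5, passed the filter on low counts in both assays. For Cebpg footprints the filter was met through the HF libraries, since only 1 control library reached its level of 8.41 CPM.

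Cebpb and Cebpg transcripts rose 2.88-fold and 3.61-fold with HF, and footprints on Cebpb, Cebpd and Cebpg rose 4.81-fold, 2.16-fold and 3.73-fold. Footprints on Cebpb rose by more than its RNA, in a test close to its threshold. Cebpz footprints fell, while its RNA did not pass the test, and its footprints relative to RNA fell. Cebpa was close to undetected. The plot of the levels in the 12 libraries shows these patterns.

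**Figure D1:**
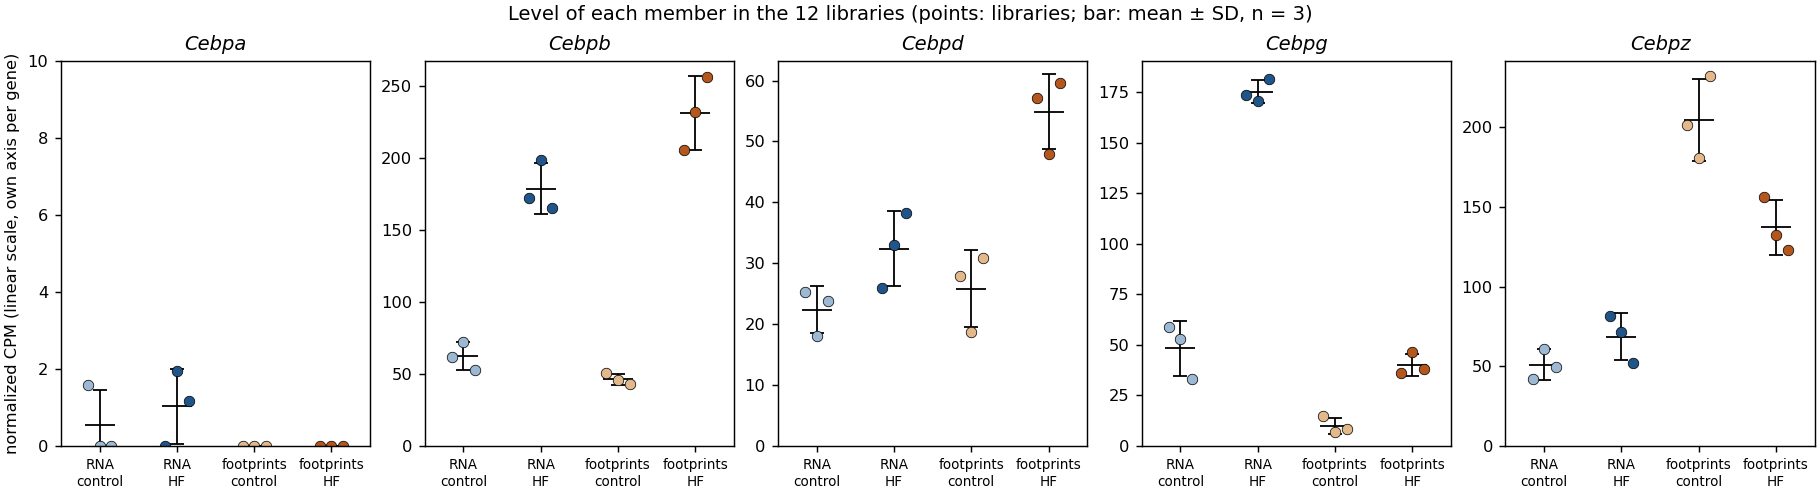
Normalized CPM of the 5 genes in the 12 libraries, with a linear axis of its own for each gene. Points are libraries, horizontal bars are group means and whiskers are SD (n = 3). Cebpb rises from a mean of 62.2 to 179 CPM in RNA and from 46.3 to 231 in footprints, while Cebpz footprints go from 205 to 137.

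Cebpb encodes C/EBP beta, a factor induced by cytokines, growth signals and stress in mesenchymal cells (ENSMUSG00000056501, GRCm38 chromosome 2 from 167688915 to 167690432). Its RNA stood at 61.8, 72.1 and 52.7 CPM in control libraries 1, 2 and 3, and at 172, 198 and 165 CPM in the HF libraries. Its footprints stood at 50.5, 45.6 and 42.9 CPM in control and at 206, 232 and 256 CPM in HF libraries. The groups were far apart in both assays, and every HF library lay well above every control library.

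Cebpb RNA increased 2.88-fold (log2 1.53, SE 0.18, edgeR adjusted p = 2.4e-11) and its footprints 4.81-fold (log2 2.27, SE 0.17, edgeR adjusted p = 1.1e-12). These p-values come from edgeR's quasi-likelihood test with Benjamini-Hochberg adjustment over all genes tested. From the top, these changes ranked 458 among the 9145 genes tested in RNA and 144 among the 8373 tested in footprints. Translational efficiency (TE) is the footprint level relative to RNA, and its change was tested with an interaction term over all 12 libraries. For Cebpb it was 0.75 on the log2 scale, or 1.68-fold (95% interval 0.25 to 1.24, edgeR adjusted p = 0.032). This call was close to the threshold and ended when any of 8 of the 12 libraries was left out, with values from 0.64 to 0.86 over the 12 and adjusted p up to 0.095.

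The contrast of footprints over RNA within a condition is a log2 ratio in the same model. Its library sizes cover only the protein-coding genes tested in both assays. The CPM values printed here use all counts of a library, so a contrast of 0 does not stand for equal CPM. Its zero point also depends on the scaling, and with DESeq2 the median gene was at −0.02 and Cebpb at −0.46 in control cells. For Cebpb the edgeR contrast was −0.70 in control cells (SE 0.19, edgeR adjusted p = 0.0016) and 0.04 in HF cells (SE 0.15, edgeR adjusted p = 0.83), where the median gene was at −0.27 and −0.25. Cebpb thus moved from above 34.5% of the 7921 genes to above 61.2% of them. The files hold 1 count per gene, so footprints that belong to the long and to the truncated isoform cannot be told apart.

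Cebpg encodes C/EBP gamma, a short bZIP protein known to pair with other C/EBPs and with ATF4 (ENSMUSG00000056216, chromosome 7 from 35046422 to 35056566). Its RNA was at 58.6, 52.7 and 33.0 CPM in the control libraries and at 173, 170 and 182 CPM in the HF libraries, which lay close together and well above every control. Footprints were sparse, with 38, 12 and 6 counts in the control libraries and 67, 29 and 21 counts in the HF libraries. In CPM these are 14.5, 7.02 and 8.05 against 36.2, 46.3 and 37.9, again without overlap.

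In RNA the Cebpg increase was 3.61-fold (log2 1.85, SE 0.19, edgeR adjusted p = 3.0e-13), and in footprints it was 3.73-fold (log2 1.90, SE 0.38, edgeR adjusted p = 9.9e-05). The efficiency change was 0.00 on the log2 scale with a 95% interval of −0.75 to 0.76 (edgeR adjusted p = 0.99), so changes of a size within that interval could not be seen at these footprint counts. Cebpg carried few footprints for its RNA in both conditions. The contrast was −2.48 in control cells (SE 0.30, edgeR adjusted p = 1.6e-10) and −2.47 in HF cells (SE 0.23, adjusted p = 2.4e-13 in the same edgeR model), and only 3.26% and 4.20% of genes lay lower. The counted feature, exon or coding sequence, is not given in the sources used here.

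The promoters of these genes, the pair whose RNA passed the test, are shown because their transcripts moved together. RefSeq windows for GRCm38.p6 were matched by symbol for 3 of the 5 members, Cebpa, Cebpb and Cebpg. The 120 bases before the annotated start are given 5′ to 3′ on the strand of the gene, for Cebpb at chr2:167688795-167688914 (plus strand) and for Cebpg at chr7:35056567-35056686 (minus strand). Capitals mark TGACG, the core of the cyclic AMP response element (CRE), in Cebpb and the CCAAT box, read on the opposite strand as ATTGG, in Cebpg.
Cebpb: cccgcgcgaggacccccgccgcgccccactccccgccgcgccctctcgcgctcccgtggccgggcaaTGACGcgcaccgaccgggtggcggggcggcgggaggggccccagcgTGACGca
Cebpg: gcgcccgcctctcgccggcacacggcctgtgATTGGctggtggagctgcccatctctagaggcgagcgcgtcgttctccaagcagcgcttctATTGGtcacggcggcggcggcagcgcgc

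A total of 5 letter patterns were searched on both strands in the 250 bases before each start, in 32851 windows. The core TGACG matched 3 times in Cebpb, at 180, 53 and 7 bases before the start, and was found at least once in 17.8% of all windows and at least 3 times in 0.688%. It matched 0 times in Cebpg and Cebpa. CCAAT matched 2 times in Cebpg, at 89 and 28 bases before the start, and at least 2 times in 10.1% of all windows. The full CRE TGACGTCA, which contains the core, the C/EBP-ATF element core TGATGNAA and the C/EBP site TTGCNNAA matched 0 times in the 3 windows, and were in 1.55%, 3.45% and 9.56% of all windows. A match describes letters only, and these windows say nothing of sites elsewhere.

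Cebpd encodes C/EBP delta, an early factor of adipogenesis and of the acute-phase response (ENSMUSG00000071637, chromosome 16 from 15887286 to 15889545). Its RNA was at 25.3, 18.0 and 23.7 CPM in control and at 26.0, 32.9 and 38.3 CPM in HF libraries. The lowest HF value lay just above the highest control value. Footprints were at 27.9, 18.7 and 30.8 CPM in control and at 57.2, 47.9 and 59.6 CPM in HF libraries, a clear separation.

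Cebpd footprints increased 2.16-fold (log2 1.11, SE 0.27, edgeR adjusted p = 0.0014). Its RNA did not pass at 0.52 (95% interval −0.16 to 1.20, edgeR adjusted p = 0.21), nor did its efficiency at 0.60 (interval −0.27 to 1.46, edgeR adjusted p = 0.40). The footprint change is therefore not shown to exceed the RNA change. The annotated spans of Cebpd and Spidr overlap by 322 bases, and the use of strand in counting is not given. Spidr itself, a DNA repair scaffold gene, stood at 0.06 in footprints (SE 0.26, edgeR adjusted p = 0.86) and at 0.48 in RNA (SE 0.38, adjusted p = 0.31 by the same edgeR test).

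Cebpa encodes C/EBP alpha, the factor of mature adipocytes, hepatocytes and granulocyte precursors (ENSMUSG00000034957, chromosome 7 from 35119293 to 35121928). It had 2, 0 and 0 RNA counts in control libraries and 0, 2 and 2 in HF libraries. Footprint counts were 0 in 6 of 6 libraries. Over the pooled libraries a count of 0 allows up to 0.611 CPM of footprints in control and 0.949 CPM in HF cells (3 counts of the total, counting error only). These limits take counts as independent. Since most low counts were even, as given above, the limits may be too low. No fold is given and no test was made. Cebpa was thus not detectable above this level on ribosomes, while its chromosome 7 neighbour Cebpg, 62726 bases away, was among the genes that rose. Cebpe, a further bZIP family gene outside the 5, had 0 counts in 12 libraries.

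Cebpa, Cebpb and Cebpd are genes without introns, so their span of 2636, 1518 and 2260 bases was used as length. The span includes untranslated sequence, and coding lengths were not used here. Footprints per kilobase of span therefore do not measure footprint density on the coding sequence, and the size of their gap between genes is uncertain. Per kilobase, Cebpb RNA was at 41.0 ± 6.42 CPM in control (SD, n = 3) and Cebpd RNA at 9.90 ± 1.70, with Cebpa at most 0.601 in any control library. In HF cells these were 118 ± 11.5 for Cebpb, 14.3 ± 2.72 for Cebpd and at most 0.735 for Cebpa. Footprints per kilobase were 30.5 ± 2.53 and 152 ± 16.7 for Cebpb in control and HF cells, against 11.4 ± 2.80 and 24.3 ± 2.73 for Cebpd. The order Cebpb, Cebpd, Cebpa held without overlap of libraries in each of the 4 groups. Cebpg and Cebpz have introns and were not placed in this order.

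Cebpz encodes the nucleolar ribosome assembly protein named above (ENSMUSG00000024081, chromosome 17 from 78919003 to 78937070). Its RNA was at 42.0, 61.0 and 49.6 CPM in control and at 81.5, 71.6 and 52.2 CPM in HF libraries, with overlap. Its footprints were at 202, 181 and 232 CPM in control and at 156, 133 and 123 CPM in HF libraries, with every HF library below every control.

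Cebpz footprints fell by 0.54 on the log2 scale (SE 0.15, edgeR adjusted p = 0.0041), a 1.46-fold decrease. Its RNA was at 0.43 and did not pass (95% interval −0.04 to 0.91, edgeR adjusted p = 0.13). The efficiency change was −0.97 (interval −1.52 to −0.43, edgeR adjusted p = 0.0097), a 1.97-fold decrease, and 8.29% of the 7921 genes had a lower value. In control cells Cebpz was rich in footprints for its RNA, at 1.71 (SE 0.20, edgeR adjusted p = 9.3e-11), above 97.6% of genes. In HF cells it was at 0.73 (SE 0.19, edgeR adjusted p = 8.1e-04), above 85.0% of genes. The span of Cebpz overlaps that of Cebpzos by 2046 bases. Cebpzos had 21, 14 and 2 footprint counts in control and 12, 3 and 10 in HF libraries, where Cebpz had 527, 309 and 173, and 289, 83 and 68. In RNA Cebpzos had 20, 4 and 17 counts in control and 11, 4 and 12 in HF libraries, where Cebpz had 53, 44 and 48, and 94, 74 and 90. Its part in the Cebpz results was not tested.

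**Figure D2:**
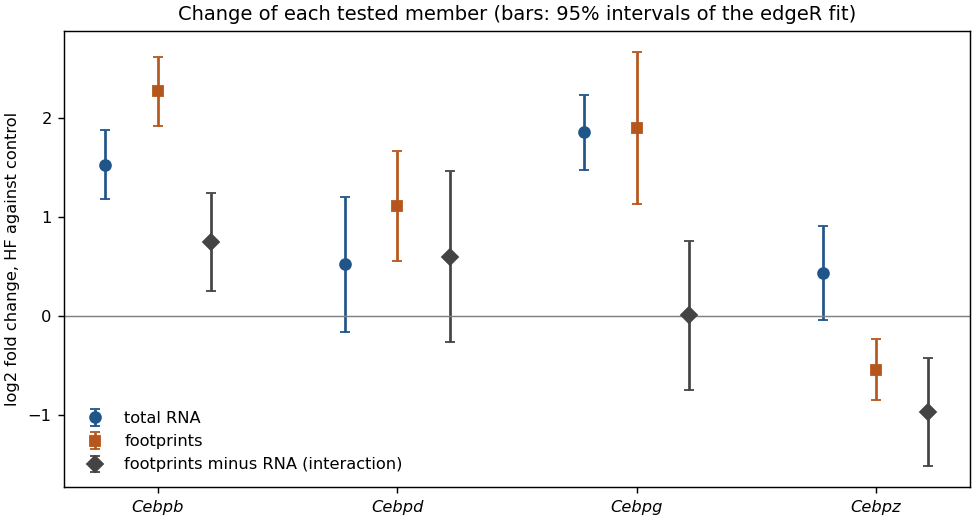
Log2 fold change of HF against control for the 4 tested genes in total RNA (circles), footprints (squares) and footprints relative to RNA (diamonds), with 95% intervals of the edgeR fits. The interval of the interaction lies above 0 for Cebpb (0.25 to 1.24) and below 0 for Cebpz (−1.52 to −0.43), and holds 0 for Cebpd and Cebpg.

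Counted over the 4 tested members, 2 rose in RNA (Cebpb and Cebpg), where 43.7% of the 9145 genes tested were called, 22.2% higher and 21.4% lower. In footprints 3 rose and 1 fell, where 43.3% of 8373 protein-coding genes were called, 22.4% higher and 20.9% lower. In efficiency 1 rose and 1 fell, where 14.4% of 7921 genes were called, 6.14% higher and 8.23% lower. HF libraries lay above control libraries without overlap for 3 members in RNA (25.9% of all genes) and below them for 0 (25.4%). In footprints they lay above for 3 (25.5%) and below for 1 (26%). Cebpg is among the 3 in both footprint tallies. It met the footprint filter through the HF libraries, so its rise is partly a condition of being tested. The others were Cebpb and Cebpd. In control cells 1 member was called high in footprints over RNA and 2 low, where 57.9% of genes were called, 20.8% high and 37.1% low. In HF cells 1 was high and 1 low, where 55.9% were called, 20.3% high and 35.5% low. The median change over all genes was −0.02 in RNA, −0.02 in footprints and 0.00 in efficiency.

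**Figure D3:**
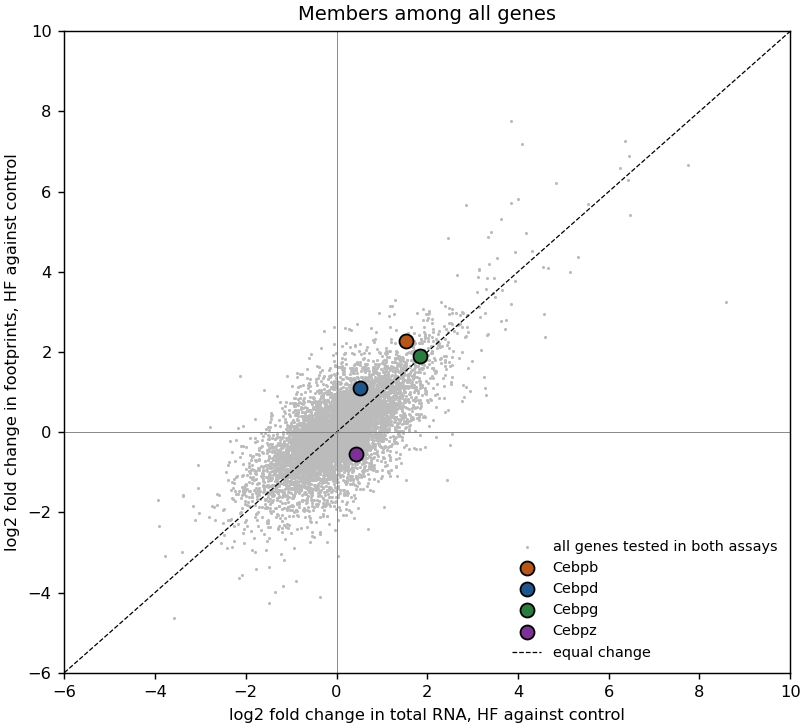
Log2 fold change in total RNA (x axis) against footprints (y axis), HF against control, for the 7921 genes tested in both assays (grey) and the 4 members (coloured). Cebpg lies near the dashed line of equal change at 1.85 and 1.90, Cebpb above it at 1.53 and 2.27, and Cebpz below it at 0.43 and −0.54.

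Among the bZIP members Cebpb took most of the footprints in all 6 libraries. Summed over Cebpa, Cebpb, Cebpd and Cebpg, RNA went from 133 ± 20.7 to 387 ± 16.0 CPM (SD, n = 3) and footprints from 82.0 ± 10.8 to 326 ± 27.5 CPM. Cebpg took 35.6% ± 4.92 of the summed RNA counts in control and 45.3% ± 2.66 in HF libraries, but only 11.8% ± 3.35 and 12.3% ± 1.76 of the footprint counts. Cebpb took 46.8% ± 4.41 and 46.1% ± 3.19 of the RNA counts, and 56.9% ± 6.16 and 70.8% ± 1.86 of the footprint counts. Cebpd took 17.2% ± 4.54 and 8.35% ± 1.47 of the RNA counts, and 31.3% ± 5.84 and 16.9% ± 2.21 of the footprint counts. These are shares of counts and are not corrected for length. In a 2-sided exact permutation test of 3 libraries against 3, where the smallest possible p is 0.1, the shares of Cebpd in both assays, Cebpg in RNA and Cebpb in footprints reached p = 0.1 (Benjamini-Hochberg 0.15 over 6 tests). Those of Cebpb in RNA and Cebpg in footprints had exact p = 0.8.

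**Figure D4:**
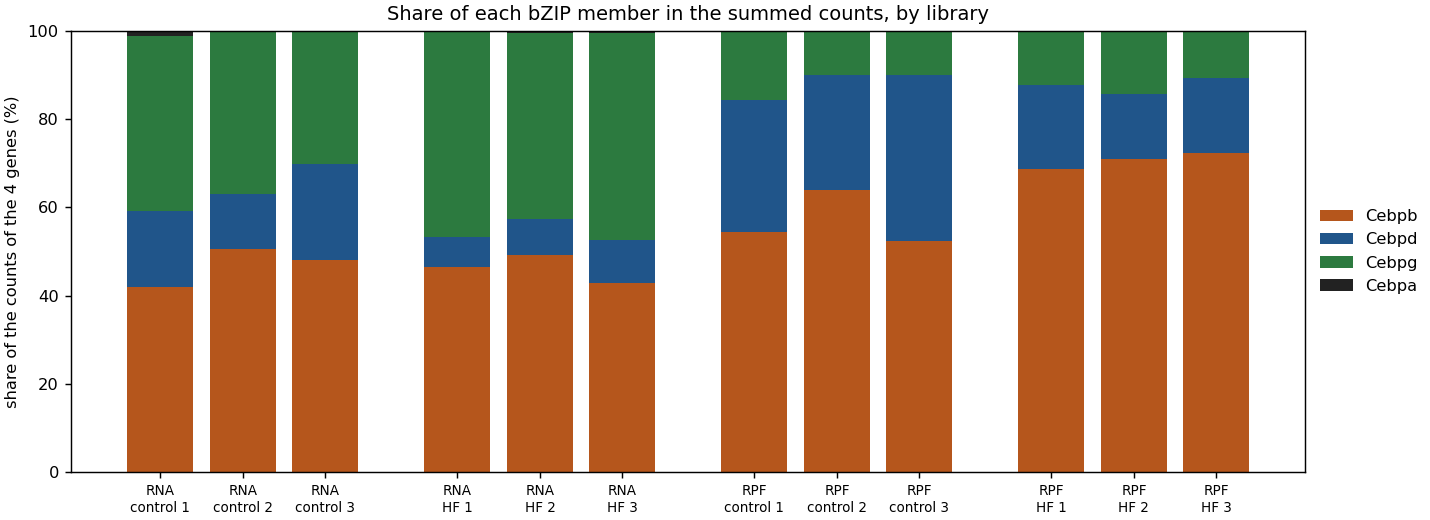
Share of Cebpb, Cebpd, Cebpg and Cebpa in their summed counts, 1 bar per library on an axis from 0 to 100%. Cebpb takes 52.5% to 63.9% of footprint counts in control and 68.8% to 72.4% in HF libraries, and Cebpd 6.99% to 9.91% of RNA counts in HF libraries against 12.6% to 21.7% in control.

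C/EBP proteins act as dimers, and 13 genes for bZIP proteins known as partners or relatives were listed, of which 10 were tested. This list and those below were chosen with earlier results of these data known. Their shares and medians are descriptive and give no independent support for a change of the class. In RNA 9 of the 10 rose and Tef fell (90% and 10%, beside 22.2% and 21.4% of all genes). In footprints 9 rose (90%, beside 22.4% of all genes) and Tef did not pass. Ddit3, Fos and Atf3 met the filter on low counts through the HF libraries in both assays, so that a rise among them is partly a condition of being tested, and Tef was under its level in some control footprint libraries. Of the 7 partners that reached the filter level in all 6 RNA libraries, 6 rose, and of the 6 that did so in footprints, 6 rose. The medians were 1.00 and 1.85 over these genes and 1.46 and 2.07 over all 10, beside −0.02 over all genes in each assay. The RNA call of Tef ended without RNA control 1 (−0.62) or RNA HF 1 (−0.48). Atf4, the translationally induced factor of the integrated stress response that pairs with C/EBP beta and gamma, changed by 0.46 in RNA (SE 0.09) and 2.71 in footprints (SE 0.10), where control libraries were at 168 to 178 CPM and HF libraries at 1122 to 1141 CPM. Ddit3, whose product CHOP dimerises with C/EBPs and blocks their usual binding, changed by 3.34 in RNA (SE 0.42) and 4.87 in footprints (SE 0.34). Atf3, a stress-induced factor, changed by 4.32 and 4.52, and Nfil3, a repressor of the PAR bZIP branch, by 2.24 in RNA. Fos, an AP-1 subunit, had 2 RNA counts over the control libraries and 230 over the HF libraries, and 4 and 266 footprint counts.

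In efficiency 4 of the 10 partners rose and 0 fell, beside 6.14% and 8.23% of all genes. Those that rose were Atf4 (2.26, SE 0.13), Tef (1.42, SE 0.43), Ddit3 (1.53, SE 0.53) and Jund (1.27, SE 0.22). The list median was 0.28 beside 0.00 over all genes. Ddit3, Tef, Fos and Atf3 were under the footprint filter level in some control libraries. High HF footprints were thus partly a condition of their place in this tally. Atf4 and Jund reached the filter level in all libraries of both assays. Only 2 of the 10 were called without RNA control 1, without RNA HF 1 or without RPF HF 1. The Tef call ended in each of these (1.18 to 1.30), and the Ddit3 call ended in 11 of the 12 fits with 1 library left out (1.18 to 1.75) and with the replicate number as a block (1.52, edgeR adjusted p = 0.065). The efficiency of Cebpb, at 0.75, lay below these 4 values and above those of the 6 other tested partners (−0.23 to 0.30). Differences between genes were not tested.

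**Figure D5:**
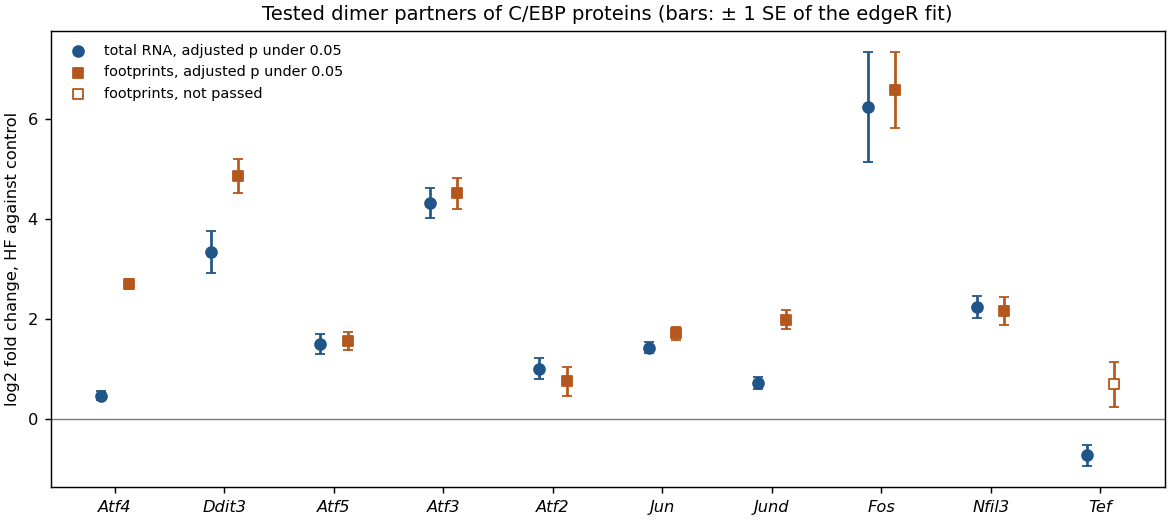
Log2 fold change, HF against control, of the 10 tested dimer partners in total RNA (circles) and footprints (squares), with whiskers of 1 SE of the edgeR fit. Filled symbols passed at an adjusted p of 0.05. Atf4 lies at 0.46 in RNA and 2.71 in footprints, and Tef is below 0 in RNA at −0.73. The fitted values of Fos rest on 2 and 4 control counts and depend on the prior count.

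Among regulators and cofactors of C/EBPs, 4 of 19 were higher and 4 lower in RNA (21.1% each), near the 22.2% and 21.4% of all genes. In footprints 6 of 19 were higher and 7 lower (31.6% and 36.8%, beside 22.4% and 20.9% of all genes). Of the 15 that reached the filter level in all 6 footprint libraries, 5 were higher and 6 lower. In efficiency 2 of 18 were higher and 1 lower, beside 6.14% and 8.23% of all genes. The list medians were 0.23, −0.05 and 0.15. The footprint count was 5 and 3 of 17 without RPF control 2. Trib3, a pseudokinase induced by CHOP, changed by 3.49 in RNA (SE 0.32) and 3.38 in footprints, where it met the filter through the HF libraries. Trib2, an adaptor that targets C/EBP alpha for degradation, met the filter through the control libraries and went from 64 to 6 RNA counts and from 64 to 4 footprint counts. The MAP kinase gene Mapk3 fell by 1.26 in RNA and by 1.03 in footprints, and the cap-binding factor Eif4e was at 0.69 in RNA and 0.05 in footprints (edgeR adjusted p = 0.86). The acetyltransferase gene Crebbp was at 0.41 in RNA (SE 0.13) and at −1.64 in footprints (SE 0.22), and its efficiency changed by −2.05 (SE 0.24). Nolc1, a nucleolar phosphoprotein known as a C/EBP beta coactivator, changed by 0.78 in efficiency (SE 0.16), and Calr, which binds C/EBP mRNAs, by 0.42 (SE 0.11). Calr was lower in both assays, at −0.64 in RNA (SE 0.09) and −0.22 in footprints (SE 0.08, edgeR adjusted p = 0.030). Its footprint call ended in 4 of the fits with 1 library left out.

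Genes known to be bound by C/EBPs in fibroblasts were mostly too low to test, with 4 of 18 tested in RNA and 5 in footprints. In RNA 2 rose and 1 fell (50% and 25% of those tested, beside 22.2% and 21.4% of all genes). In footprints 2 rose and 1 fell (40% and 20%, beside 22.4% and 20.9% of all genes). The list medians were −0.13 and 0.22, beside −0.02 over all genes in each assay. Ptgs2, which encodes cyclooxygenase COX-2, went from 124 to 173 CPM in control RNA libraries to 1627 to 1685 CPM in HF libraries (log2 3.46, SE 0.11), and its footprints changed by 3.85 (SE 0.11). Timp1, a metalloproteinase inhibitor, changed by 0.61 in footprints (SE 0.09). In RNA Timp1 was at 0.30 with overlapping groups (SE 0.13, edgeR adjusted p = 0.043), a call that ended with DESeq2, with upper-quartile scaling and without RNA control 1, RNA control 3 or RNA HF 1 (0.21 to 0.29 for these libraries). The mitochondrial superoxide dismutase gene Sod2 fell by 1.15 in RNA (SE 0.19) and by 1.19 in footprints (SE 0.19). Il6 had at most 6 counts in any library, and Saa3, Lcn2, Hp, Cxcl5, Mmp3, Igf1 and Csf3 had 0 in each.

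Among adipogenesis genes 6 of 15 were tested in RNA, with 3 higher and 1 lower (50% and 16.7%, beside 22.2% and 21.4% of all genes). In footprints 4 were tested, with 3 higher (75%, beside 22.4% of all genes). Egr2 met the filter only through the HF libraries in both assays, and Ebf1 did so in RNA. In each assay 3 genes reached the filter level in all 6 libraries. Of these, 2 rose and 1 fell in RNA and 2 rose in footprints, with medians of 1.28 and 1.82. Over all genes the median was −0.02 in each assay. Klf5 and Klf4, zinc finger factors that act upstream of or beside Cebpb and Cebpd in that programme, changed by 2.79 (SE 0.15) and 1.28 (SE 0.22) in RNA, and by 2.96 and 1.82 in footprints. Egr2 (Krox20), which is known to act early with Cebpb, went from 3 to 388 RNA counts and from 4 to 344 footprint counts. Srebf1, a lipid synthesis factor, fell by 0.62 in RNA (SE 0.21), a call that ended without RNA control 1 (−0.44) or RNA HF 1 (−0.38), and stood at −0.29 in footprints (edgeR adjusted p = 0.23). Pparg, the C/EBP alpha partner of late adipogenesis, had at most 10 counts in any library.

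The genes listed beside Cebpz are assembly factors of the large ribosomal subunit, and 22 of 22 were tested. In RNA 4 rose and 6 fell (18.2% and 27.3%, beside 22.2% and 21.4% of all genes), and in footprints 7 rose and 6 fell (31.8% and 27.3%, beside 22.4% and 20.9%). The medians were 0.01 and −0.06. Of the 20 that reached the filter level in all 6 RNA libraries, 3 rose and 6 fell. Nle1, which rose, met the RNA filter through the HF libraries. In RNA Noc3l, a nucleolar complex protein, was at 1.32 (SE 0.21), while Ebna1bp2 fell by 1.32 (SE 0.22) and Ppan by 1.03 (SE 0.23). Footprints changed by 0.79 on Mak16, by 0.69 on Gtpbp4 and by −0.86 on Ebna1bp2. Nle1, at 0.85 in RNA (SE 0.34) and 0.70 in footprints (SE 0.26), lost its call with DESeq2 in both assays and in 3 of the 6 fits of each assay with 1 library left out, namely without RNA control 2 (0.54), RNA HF 1 or RNA HF 3, and without RPF control 1 (0.43), RPF HF 2 or RPF HF 3. In efficiency 0 of the 22 passed the edgeR test, where 14.4% of all genes were called. An unadjusted p under 0.05 was seen for 2, and DESeq2 called 0. With no filter on low counts, or without RNA control 3, RNA HF 1, RPF control 3 or RPF HF 1, edgeR called 1, which was lower. The list median was 0.09 in efficiency, where Cebpz was at −0.97. Values in the list ran from −0.65 for Noc3l (SE 0.26, edgeR adjusted p = 0.082) to 0.46 for Ebna1bp2. Whether Cebpz differed from these genes was not tested.

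Likeness of pattern was measured as the root mean square difference between the log2 CPM values of 2 genes over the 12 libraries, each centred on its mean within the assay, over 6480 protein-coding genes whose mean log2 CPM reached 4 in each assay. Nearest to Cebpb were Kctd11 (0.13), Mgea5 (0.19) and the histone gene Hist2h2aa2 (0.19), where the median gene was at 1.01. Kctd11 changed by 1.57 in RNA and 2.48 in footprints. Nearest to Cebpg were Irs2, Sprtn and Iqgap1 (0.26 each, median 1.02), with Irs2 at 2.17 in RNA and 1.79 in footprints. Nearest to Cebpd were Nufip1 (0.17), Cnot4 (0.19) and Znrd1 (0.19, median 0.58). Nearest to Cebpz were Lig1 (0.10), Cfl2 (0.14) and Brpf1 (0.17, median 0.50), with Lig1 at 0.50 in RNA and −0.45 in footprints. Within the family Cebpb and Cebpg differed by 0.29, Cebpb and Cebpd by 0.62, and Cebpb and Cebpz by 1.10. Hist2h2aa2 has near-identical copies, and its value is uncertain.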

How the data were processed

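Total RNA and ribosome footprints of MEF cells were analysed from 12 tables of raw read counts per Ensembl gene, 1 per library, as deposited by the authors. The submitters' processing notes list GRCm38 with HTSeq, HISAT2 and Bowtie. Their versions, the counted feature, strand use and the treatment of multi-mapping reads: not given in the sources used here. Symbols, positions and promoters came from RefSeq tables (GRCm38.p6), and 55450 of 55536 IDs had a symbol. Per the labels, groups were 3 control and 3 HF libraries for each assay.

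Counts were fitted in R 4.3.3 with edgeR 4.0.16 (filterByExpr defaults with a minimum count of 10, TMM factors within each assay, quasi-likelihood test, Benjamini-Hochberg threshold 0.05) over the whole table, and for footprints and efficiency over protein-coding genes. SE and 95% intervals came from the model weights and the quasi-likelihood dispersion. The scripts were tested on simulated data. Gene span replaced coding length for levels per kilobase. DESeq2 1.42.0, other scalings and filters, the replicate block and left-out libraries were alternatives. Named genes are the 5 members, up to 4 called genes with the largest change per list and comparison, and the 3 genes nearest to each member; Spidr, Cebpzos, Ndufaf7 and Pepd are named as overlapping or adjacent genes. Members, lists and rules were chosen with earlier results of these data known. Libraries of a group differed by more than independent counts would, with 2.26 to 4.45 chi-square per degree of freedom between pairs. The part of the frequent even counts in this was not tested, so a spread beyond sampling noise is not shown.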

Additional observations from a re-analysis of the deposited data

Results flagged for a closer look

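For 2 members the response to HF differed between the assays in the interaction test. For Cebpb the change in footprints minus the change in RNA was 0.75 on the log2 scale (edgeR adjusted p = 0.032), with footprints at 2.27 and RNA at 1.53. For Cebpz it was −0.97 (edgeR adjusted p = 0.0097), with footprints at −0.54 and RNA at 0.43. The Cebpz call held under each of the 18 alternatives run, with adjusted p up to 0.049, and the Cebpb call ended under 9 of 18.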

How the results depend on the processing

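Of 256 alternative values for 16 member results, 247 kept their side of the threshold. The other 9 concern the efficiency of Cebpb, which was 0.70 with no filter on low counts (edgeR adjusted p = 0.058) and 0.64 to 0.86 with 1 library left out, where the call ended without RNA control 1 or 2, RNA HF 1 or 3, RPF control 2 or 3, or RPF HF 2 or 3. The cause was not tested. Each of these 16 results that passed in the main fit kept its direction throughout. They cover RNA, footprints, efficiency and the control contrast. The contrasts of footprints over RNA in HF cells were not run under the alternatives. Among those that did not pass, the sign changed for the efficiency of Cebpg (−0.24 to 0.55) and the control contrast of Cebpd (−0.30 to 0.09). Counts of called genes stayed within 1.5 times of the main count in all 64 alternatives (RNA 3361 to 4032, footprints 2917 to 3748, efficiency 889 to 1150). No pairing by replicate number was detected, since same-numbered libraries had correlations of −0.03 to 0.024 between their deviations. Whether same-numbered libraries came from the same culture is not given in the labels and was not tested. With a replicate block 3933 genes were called in RNA, 3547 in footprints, 1026 in efficiency and 4489 for footprints over RNA in control cells, and the efficiency of Cebpb was 0.74 (edgeR adjusted p = 0.043). Another length for the levels per kilobase was not run, because no length table was used here. Depth left Cebpa untested and limits Cebpg, which had 6 to 38 footprint counts in control libraries and whose efficiency ranged from −0.24 to 0.55 over the alternatives.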

Other observations

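Ndufaf7, which encodes a mitochondrial complex I assembly methyltransferase, lies 35 bases from Cebpz on chromosome 17 and was picked after its values were seen. Its footprint counts were 119, 89 and 32 in control libraries and 21, 8 and 12 in HF libraries, a change of −1.74 on the log2 scale (edgeR adjusted p = 5.2e-05). In RNA it was at −1.06 (edgeR adjusted p = 0.080). Pepd, which encodes prolidase, the enzyme that frees proline from dipeptides, lies 1713 bases from Cebpg and was likewise picked after its values were seen. It had 20, 12 and 26 RNA counts in control and 32, 31 and 66 in HF libraries, and 180, 125 and 56 against 90, 33 and 35 footprint counts. Neither difference passed, at 0.70 in RNA and −0.44 in footprints (edgeR adjusted p = 0.10 for each).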
